A study of Homo sapiens with 6 samples.

Results

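The genes described here are 43 genes of macroautophagy, from the kinase complex that starts it to the receptors that pick its cargo. They were taken by symbol from the 60683 rows of the count table, leaving out SQSTM1. Each of the 43 matched a single Ensembl row, and all 43 were among the 15846 genes with enough counts to be tested. The study sequenced total RNA of 143B cells, a human osteosarcoma line derived from HOS cells. Cells of 3 libraries had received PBS and those of 3 others TPBC-PEG, the compound under study, and all were taken after 24 h. The dose is not settled, because the titles name 3 µM and the treatment protocol names 300 µM. The series concerns photodynamic therapy, in which a compound forms reactive oxygen species under light, but the sample labels do not say whether these cells were illuminated.

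Macroautophagy encloses part of the cytoplasm in a double membrane, the autophagosome, and delivers it to the lysosome for breakdown. The ULK kinase complex starts the process, a lipid kinase complex marks the membrane with phosphatidylinositol 3-phosphate, and WIPI proteins read that mark while ATG9 and ATG2 bring in lipid. A ubiquitin-like conjugation machinery then attaches small ATG8 proteins (the LC3 and GABARAP families) to the membrane, and receptors bind both ATG8 and cargo. Cells raise mRNA of some of these genes through factors such as ATF4, CHOP, FOXO3 and TFEB. The comparison asks which steps of the pathway differ in mRNA after TPBC-PEG. Protein levels, ATG8 lipidation and autophagic flux were not analysed here.

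The promoter stretches of WIPI1 and GABARAPL1 are shown because these were the only members called at 2-fold or more. Among all genes tested, 1.57% were called at that size as higher and 0.328% as lower. They are RefSeq sequences on GRCh38.p14, read 5′ to 3′ on the strand of the gene, and capitals mark GC boxes (GGGCGG on either strand) and a cyclic AMP response element (CRE, TGACGTCA). The WIPI1 stretch is chr17:68457514-68457746 on the minus strand, 233 bases that end just before the outermost GENCODE exon. The GABARAPL1 stretch is chr12:10212825-10212854 on the plus strand, 30 bases that end before the RefSeq start at 10212877. It lies within the GENCODE bounds of the gene. Of the 250 bases before that start, 199 are in exons of any GENCODE gene on either strand.
WIPI1: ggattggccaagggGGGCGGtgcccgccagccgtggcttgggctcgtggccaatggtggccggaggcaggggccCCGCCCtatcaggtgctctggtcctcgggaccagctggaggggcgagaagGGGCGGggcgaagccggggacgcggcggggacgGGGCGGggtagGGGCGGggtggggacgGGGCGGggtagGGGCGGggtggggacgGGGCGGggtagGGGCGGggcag
GABARAPL1: GGGCGGGGCGGggctcgcggggTGACGTCA

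The libraries held 15726323 to 20486584 counts. Replicates differed by more than sampling noise. No label says whether they were separate cultures, so the p-values reflect the scatter among these 6 libraries, and that scatter may be purely technical. Mesenchymal and osteoblast markers were mostly present, with VIM at 2577 CPM (counts per 1e6, TMM-scaled) under PBS, but COL1A2 and THY1 were under 0.2 CPM in both groups. Of the 7 that could be tested, 4 fell (VIM, CD44, SPARC and COL1A1) and 1, RUNX2, rose; their part in the results below was not tested. Of 13 epithelial, haematopoietic, endothelial and hepatocyte markers only EPCAM exceeded 1 CPM in a group mean, at 16.11 and 16.96 CPM, and it was not called. CD14 reached 1.04 CPM in 1 PBS library. Mitochondrially encoded mRNA took 5.42% to 6.32% of counts with PBS and 4.75% to 4.92% with TPBC-PEG, and its part was likewise not tested. In bulk RNA, a change in every cell and a change in the share of cells that express a gene cannot be told apart.

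After TPBC-PEG, 15 of the 43 genes rose, 0 fell and 28 did not pass the test (edgeR quasi-likelihood, Benjamini-Hochberg adjusted p under 0.05 over all tested genes). Among all 15846 genes tested, 33.2% were called, 16.2% as higher and 16.9% as lower. The share of the 43 that was called, 34.9%, was near that of all genes, and all of its calls were in 1 direction. With scaling by library size alone, calls over all genes shifted to 3213 higher and 1971 lower, from 2574 and 2682. At an unadjusted p under 0.05, 1 member was lower, and DESeq2 and limma-voom called 0 lower. The median log2 fold change was 0.12 over the members and 0.011 over all genes tested. In 18 members all 3 TPBC-PEG values lay above all 3 PBS values, and in 2, ATG4A and ATG7, all lay below. Over all genes, 22.1% were separated upward and 21.4% downward, 43.4% in all. The median size of the called changes was 0.41 on the log2 scale for members and 0.29 for all called genes. Of the 15 rises 11 were under 1.5-fold, and WIPI1 and GABARAPL1 passed a test against a 1.5-fold change, which 0.827% of all genes passed as higher and 0.0884% as lower.

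**Figure D1:**
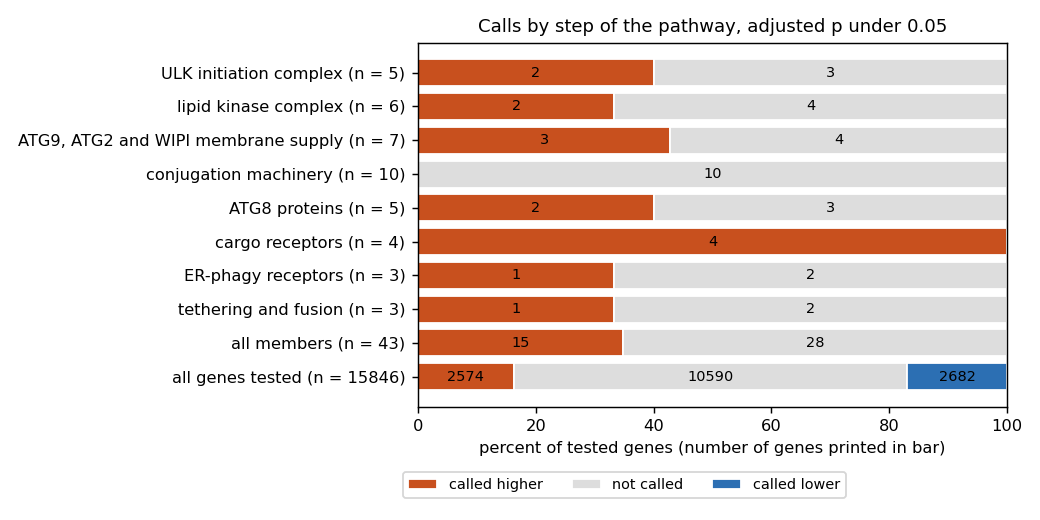
Share of tested genes called higher (orange), lower (blue) or not called (grey) in TPBC-PEG against PBS, by step of the pathway, with the number of genes printed in each bar. All 4 cargo receptors were called higher and 0 of 10 conjugation genes were called, beside 2574 higher and 2682 lower among 15846 genes.

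The members that passed were counted by step. The rises stood at 2 of 5 genes of the ULK complex, 2 of 6 of the lipid kinase complex, 3 of 7 of the ATG9, ATG2 and WIPI group, 2 of 5 ATG8 genes, 4 of 4 cargo receptors, 1 of 3 receptors for the endoplasmic reticulum and 1 of 3 tethering and fusion genes. None of the 10 conjugation genes was called. Counted together, 7 of 12 ATG8 and receptor genes rose (median log2 fold change 0.29) and 8 of 31 genes of the other steps (median 0.053). Over all 15846 genes tested, 16.2% were called higher and 16.9% lower, and the median log2 fold change was 0.011. The step counts are over small groups, from lists chosen with earlier results known, and the difference between steps was not tested.

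**Figure D2:**
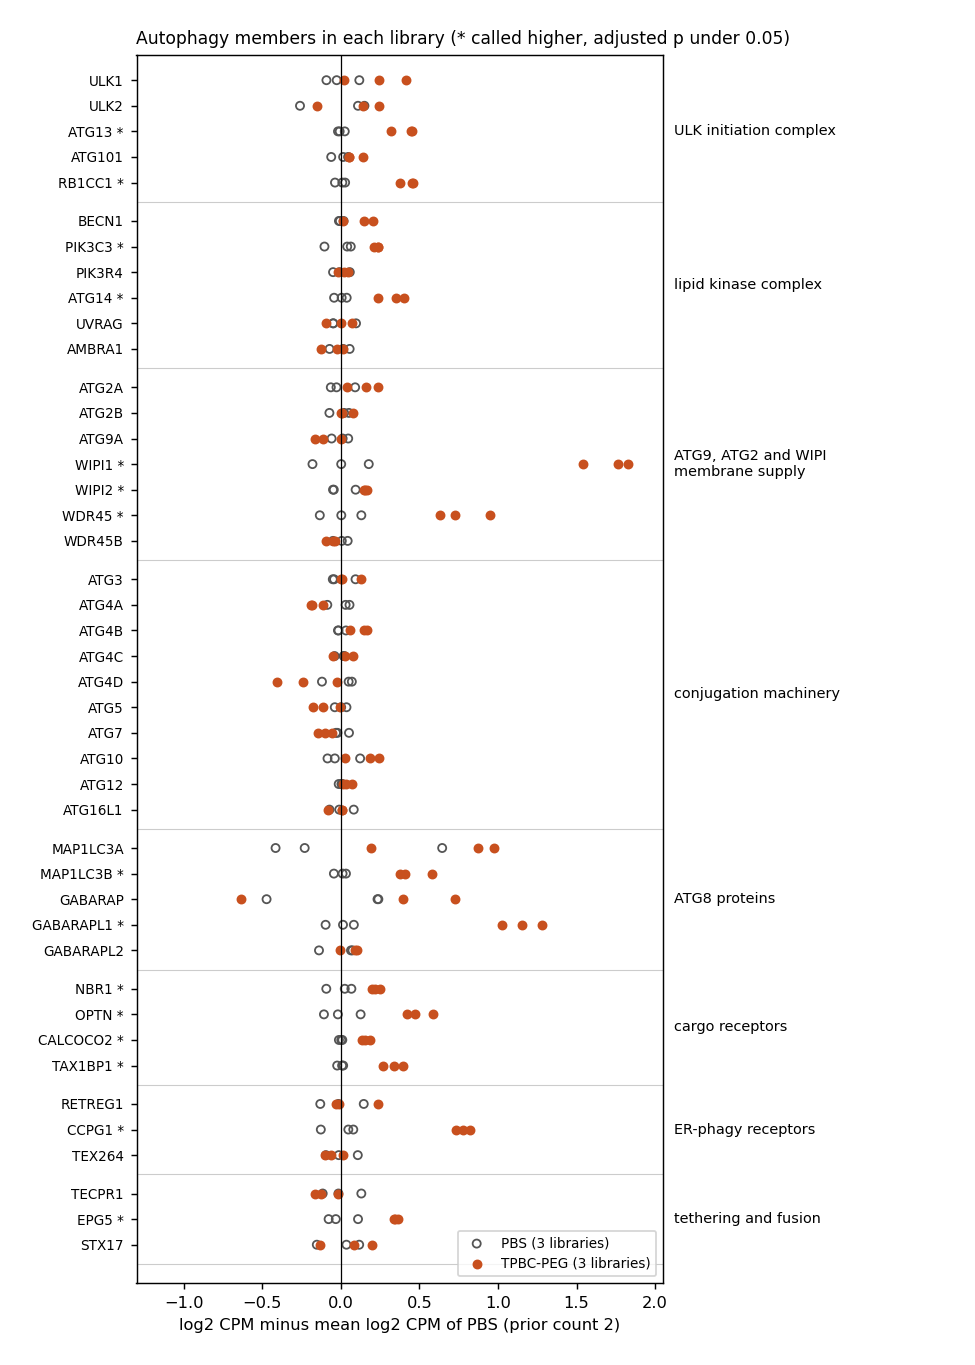
Each row is 1 of the 43 members and each point 1 library, as log2 CPM (prior count 2) minus the PBS mean of that gene; open circles are PBS, filled circles TPBC-PEG, and an asterisk marks the 15 members called higher. WIPI1 and GABARAPL1 stand farthest to the right, and the conjugation genes scatter around 0.

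In the ULK complex RB1CC1 and ATG13 rose, and ULK1, ULK2 and ATG101 did not pass. Differences between these genes were not tested. RB1CC1 (ENSG00000023287), which encodes FIP200, the large scaffold of the complex, stood at 98.5, 94.2 and 97.3 CPM in the PBS libraries and at 133.2, 132.5 and 125.8 CPM in the TPBC-PEG libraries. The groups did not overlap, and the log2 fold change was 0.43 ± 0.044 (SE, n = 3 per group; edgeR adjusted p = 2.73e-11). ATG13 (ENSG00000175224, chr11:46617527-46674818), the adaptor that joins the kinase to FIP200, was at 51.6, 53.1 and 52.0 CPM with PBS and at 71.1, 71.4 and 65.3 CPM with TPBC-PEG. Its values were again apart, with a log2 fold change of 0.41 ± 0.054 (edgeR adjusted p = 3.06e-08). ULK1, the kinase itself, had overlapping values of 10.48, 12.14 and 10.97 CPM under PBS and 13.26, 11.33 and 14.92 CPM under TPBC-PEG. The ULK1 log2 difference of 0.23 (95% interval 0.0041 to 0.448) was not called (edgeR adjusted p = 0.113). It passed with the GC trend removed (edgeR adjusted p = 0.0186) and without TPBC-PEG replicate 2 (0.0366), and its adjusted p ran up to 0.449 under the other settings. ULK2, its paralogue, and ATG101, which stabilises ATG13, were not called, at 0.090 and 0.082. Per kb of exon, the PBS level of RB1CC1 was 12.7 CPM and that of ULK1 1.47 CPM.

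Of the lipid kinase complex, the subunit that directs it to autophagy and the catalytic subunit rose. ATG14 (ENSG00000126775, chr14:55366392-55411858), which places the complex at the site of autophagosome formation, was at 40.68, 42.06 and 43.01 CPM with PBS and at 55.4, 53.5 and 49.5 CPM with TPBC-PEG. The groups were apart, and the log2 fold change was 0.34 ± 0.060 (edgeR adjusted p = 1.24e-05). PIK3C3, which encodes the kinase VPS34, rose from 48.2 ± 2.99 to 56.4 ± 0.486 CPM (mean ± SD, n = 3), a log2 fold change of 0.23. BECN1, the Beclin 1 gene, missed the threshold at 73.3 ± 0.798 and 79.9 ± 5.34 CPM (edgeR adjusted p = 0.0559). The BECN1 value passed under 5 of 19 other settings, with adjusted p from 0.00939 to 0.277 over all of them. UVRAG, which takes the place of ATG14 in the form of the complex that serves endosomes, had group means of 27.1 and 26.9 CPM and was not called. PIK3R4, the regulatory subunit, and AMBRA1, a Beclin 1 partner, were at log2 differences of 0.016 and -0.044, also not called.

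WIPI1 showed the largest rise of the 43. It encodes a protein that binds phosphatidylinositol 3-phosphate on the growing membrane, and the gene (ENSG00000070540) lies at chr17:68420948-68457513 in GRCh38, the build of all gene positions here. Its CPM were 8.71, 11.2 and 9.90 with PBS and 33.8, 35.4 and 28.9 with TPBC-PEG. The lowest TPBC-PEG library lay far above the highest PBS library, and the fold change was 3.31 (log2 1.73 ± 0.093, 95% interval 1.54 to 1.91; edgeR adjusted p = 7.14e-20). Ranked by log2 fold change among all 15846 genes tested, WIPI1 was number 42 and GABARAPL1 number 167. Exons of other genes cover 28.1% of the WIPI1 exon length, with ARSG on the opposite strand as the largest overlap. Whether reads were counted by strand is unknown. The row of ARSG held 94 to 145 counts per library in all 6 libraries, against 157 to 202 for WIPI1 with PBS and 461 to 734 with TPBC-PEG.

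Of the paralogues of WIPI1, WDR45 and WIPI2 were called. WDR45 (ENSG00000196998, chrX:49071470-49101170), which encodes WIPI4, was at 2.71, 2.99 and 3.28 CPM with PBS and at 5.86, 4.68 and 5.02 CPM with TPBC-PEG. It rose without overlap by 0.80 ± 0.18 on the log2 scale (edgeR adjusted p = 0.000377), from 52 to 54 counts per PBS library. Exons of other genes cover 13.9% of the WDR45 exon length. The largest overlap was with PRAF2 on the same strand, which held 7 to 15 counts. WIPI2, the paralogue that recruits the conjugation machinery, was called at 0.15 (edgeR adjusted p = 0.0164), with 81.0 ± 0.540 CPM after TPBC-PEG against 72.9 ± 4.19. That call was lost under 5 of 19 other settings: the DESeq2 Wald test (adjusted p = 0.0502), the exon length trend removed (0.0514), and without PBS replicate 2 (0.0824), PBS replicate 3 (0.0908) or TPBC-PEG replicate 2 (0.0629). Its adjusted p ran from 0.00234 to 0.0908 over all of them. WDR45B, which encodes WIPI3, was not called, at 125.1 ± 4.08 and 120.0 ± 2.55 CPM. Per kb of exon, WDR45B was the highest of all 43 members as counted, at 35.3 CPM with PBS. The GABARAP row in that ranking is uncertain, as given below. The length counts every annotated exon of a gene, so levels and shares per kb depend on the annotation. The share of WIPI1 in the summed CPM per kb of these 4 paralogues was 5.32%, 6.98% and 6.40% in the PBS libraries and 18.4%, 19.0% and 16.5% in the TPBC-PEG libraries. The share of WDR45B went from 75.3% ± 0.333 to 63.4% ± 0.731. The summed level was 46.9 ± 1.33 CPM per kb with PBS and 53.5 ± 1.74 with TPBC-PEG.

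The genes for membrane supply did not pass the test. ATG2A and ATG2B, the lipid transfer proteins, had log2 differences of 0.14 and 0.031, and ATG9A, the lipid scramblase carried on vesicles, of -0.096. Other genes share 38.8% of the ATG9A exon length. The largest overlap was with AC068946.2 on the same strand, which held 1 count in all 6 libraries together. How reads in shared exons were counted is unknown, so the level of ATG9A is uncertain. ATG2A passed with the GC trend removed (edgeR adjusted p = 0.0324), and its adjusted p ran up to 0.496 elsewhere. ATG2B supplied 71.1% ± 1.43 of the ATG2 level per kb with PBS and 69.4% ± 2.06 with TPBC-PEG.

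**Figure D3:**
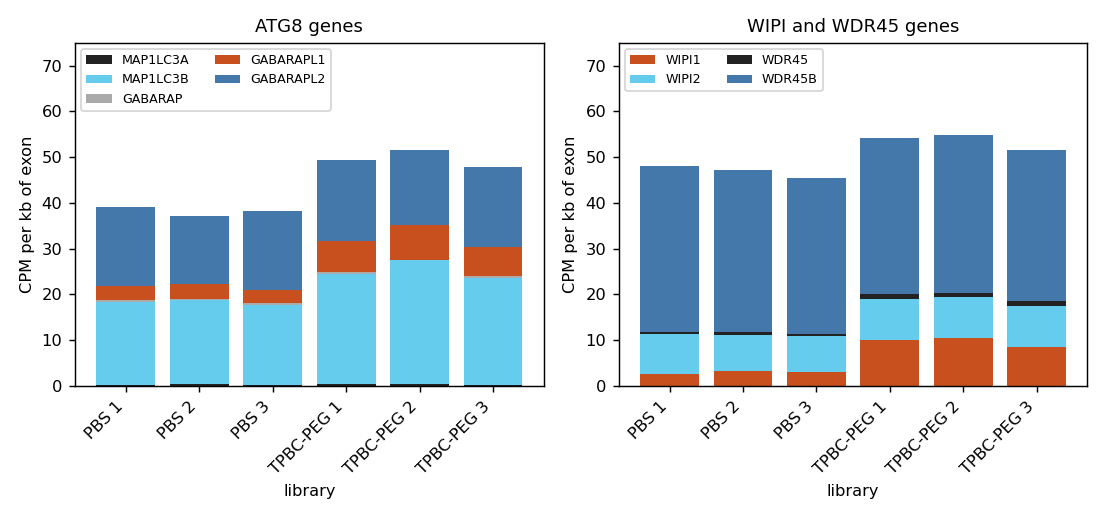
Stacked CPM per kb of exon in each of the 6 libraries for the 5 ATG8 genes (left) and the 4 WIPI and WDR45 genes (right). The GABARAPL1 layer widens from 8.07% to 13.8% of the ATG8 sum and the WIPI1 layer from 6.24% to 18.0% of its family, as group means; the ATG8 shares depend on the uncertain GABARAP row.

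Among the ATG8 genes, GABARAPL1 and MAP1LC3B rose. GABARAPL1 (ENSG00000139112) encodes a GABARAP family protein and lies at chr12:10212458-10223130. It was at 12.7, 13.3 and 11.7 CPM with PBS and at 28.0, 30.7 and 25.6 CPM with TPBC-PEG. The groups were far apart, with a fold change of 2.24 (log2 1.16 ± 0.088, 95% interval 0.99 to 1.34; edgeR adjusted p = 2.05e-15). GABARAPL3, a processed pseudogene close in sequence to GABARAPL1, held 0 counts in every library. MAP1LC3B (ENSG00000140941, chr16:87383995-87404779), the gene for LC3B, read 96.6, 98.0 and 92.95 CPM under PBS and 127.2, 143.4 and 124.4 CPM under TPBC-PEG. It rose by 0.46 ± 0.048 on the log2 scale (edgeR adjusted p = 9.89e-11), again with no overlap. Its near copy MAP1LC3B2 had group means of 0.931 and 1.52 CPM and was not called. How reads that match both copies were counted is unknown, so the split between them is uncertain.

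The remaining ATG8 genes were not called. GABARAPL2, also known as GATE-16, was at 50.1 ± 4.08 and 52.3 ± 2.14 CPM, a log2 difference of 0.061 with a 95% interval of -0.06 to 0.18. MAP1LC3A held 4 to 10 counts per PBS library and 6 to 15 per TPBC-PEG library, so its log2 difference of 0.81 had an interval of -0.20 to 1.83. GABARAP itself held 9 to 17 counts with PBS and 9 to 25 with TPBC-PEG. The GABARAP value is uncertain, since 55.7% of its exon length is shared with other genes. The largest overlap was with AC120057.2 on the same strand, whose own row held 0 counts in all 6 libraries. The ATG8 sum and its shares include the GABARAP counts, so they are uncertain as far as GABARAP reads are missing from that row. Summed per kb, the ATG8 genes were at 39.1, 37.2 and 38.1 CPM in the PBS libraries and at 49.4, 51.5 and 47.9 CPM in the TPBC-PEG libraries. MAP1LC3B took 47.3% ± 2.00 of that sum with PBS and 49.9% ± 2.18 with TPBC-PEG, while GABARAPL2 went from 43.2% ± 2.66 to 34.8% ± 2.56.

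The conjugation machinery showed no call in either direction. At an unadjusted p under 0.05, 2 of its 10 genes passed, ATG4B upward and ATG4D downward, and DESeq2 and limma-voom called 0. The 95% intervals of all 10 log2 fold changes lay between -0.44 and 0.40. The smallest p was that of ATG4B, the main protease that trims and recycles ATG8, at 65.45, 63.34 and 63.19 CPM with PBS and at 71.9, 70.8 and 66.7 CPM with TPBC-PEG. The groups did not overlap, but the log2 difference of 0.13 missed the threshold (edgeR adjusted p = 0.0555). It passed under 6 of 19 other settings, with adjusted p from 0.00233 to 0.216. ATG4D, a paralogue of low level, was at 14.3 ± 1.02 and 12.3 ± 1.67 CPM (edgeR adjusted p = 0.0949). The ATG4D value passed as lower without TPBC-PEG replicate 3 (edgeR adjusted p = 0.0284) and with the expression-level trend removed (0.0432), with adjusted p up to 0.423 elsewhere. Exons of other genes cover 15.0% of the ATG4D exon length and 18.1% of that of ATG7. The largest overlaps were with KRI1 and VGLL4 respectively, both on the opposite strand. KRI1 held 1003 to 1266 counts per library and VGLL4 653 to 849.

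ATG12 and ATG5, which are joined into the enzyme that lipidates ATG8, had log2 differences of 0.039 and -0.098, and their partner ATG16L1 -0.026. ATG5 passed as lower with the GC trend removed (edgeR adjusted p = 0.0408), and its adjusted p ran up to 0.615 elsewhere. ATG7, the E1-like activating enzyme, was at -0.098 and the E2-like enzymes ATG3 and ATG10 at 0.049 and 0.16. ATG4A was at -0.16 and ATG4C at 0.019. The summed level of the 4 ATG4 genes was 33.8 ± 0.482 CPM per kb with PBS and 33.4 ± 0.523 with TPBC-PEG.

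**Figure D4:**
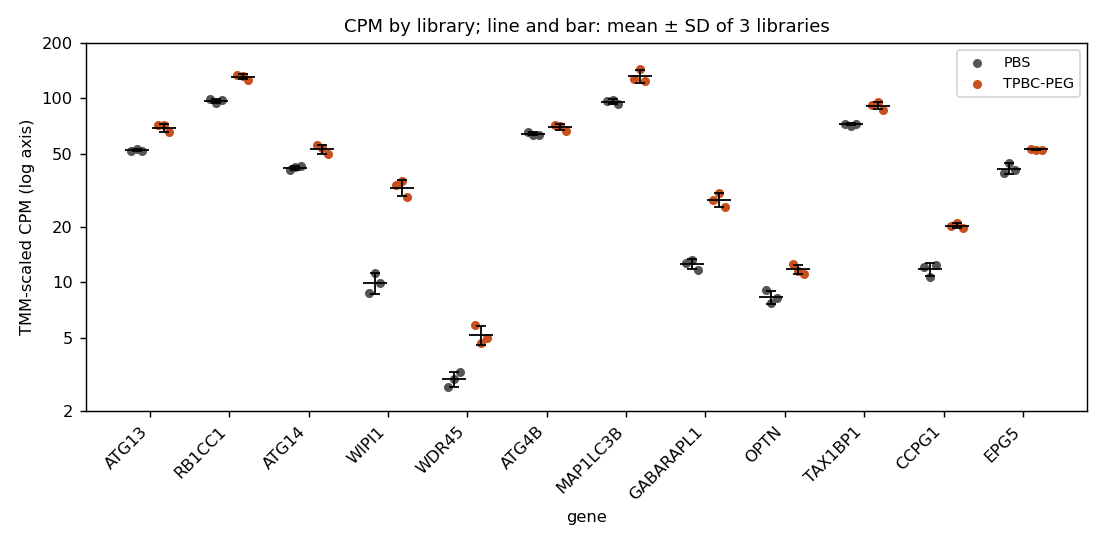
TMM-scaled CPM on a log axis for the 11 members called at an absolute log2 fold change of 0.3 or more and for ATG4B; points are libraries (grey PBS, orange TPBC-PEG), and lines with bars are the mean ± SD of 3 libraries. The TPBC-PEG points of WIPI1 lie at 28.9 to 35.4 CPM, above its PBS points at 8.71 to 11.2, and the ATG4B points lie close together.

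All 4 cargo receptors rose, by 0.16 to 0.50 on the log2 scale. OPTN (ENSG00000123240, chr10:13099449-13138308), the optineurin gene, whose product binds damaged mitochondria and protein aggregates, was at 9.07, 7.70 and 8.20 CPM with PBS and at 12.5, 11.6 and 11.2 CPM with TPBC-PEG. Its groups were apart, and the log2 fold change was 0.50 ± 0.12 (edgeR adjusted p = 0.000538). TAX1BP1 (ENSG00000106052, chr7:27739331-27844564), a receptor for ubiquitin-marked aggregates, was at 72.5, 70.9 and 72.8 CPM with PBS and at 91.3, 94.8 and 86.7 CPM with TPBC-PEG. It rose by 0.34 ± 0.049 without overlap (edgeR adjusted p = 2.33e-07). NBR1, which works beside p62 on ubiquitin-marked cargo, rose by 0.22, with 128 ± 2.17 CPM after TPBC-PEG against 109.9 ± 6.23. CALCOCO2, which encodes NDP52, a receptor for bacteria and mitochondria, was called at 0.16 (edgeR adjusted p = 0.0107). That call was lost without TPBC-PEG replicate 1 (edgeR adjusted p = 0.0620), with adjusted p from 0.00134 upward in the other settings. SQSTM1, the p62 gene left out of the set, rose by 1.03 ± 0.041 on the log2 scale (edgeR adjusted p = 1.50e-25). Exons of other genes cover 22.04% of the SQSTM1 exon length, with MRNIP on the opposite strand as the largest overlap. The difference between SQSTM1 and these receptors was not tested.

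Of the 3 members that are receptors for the endoplasmic reticulum, CCPG1 rose and RETREG1 and TEX264 did not pass. CCPG1 (ENSG00000260916, chr15:55340032-55408510), a receptor of endoplasmic reticulum autophagy known to be induced by stress of that organelle, was at 12.15, 10.75 and 12.42 CPM with PBS and at 20.25, 20.88 and 19.63 CPM with TPBC-PEG. The groups were well apart, and the fold change was 1.72 (log2 0.79 ± 0.093; edgeR adjusted p = 2.02e-09). Exons of other genes cover 39.8% of the CCPG1 exon length. The largest overlap was with the readthrough gene DNAAF4-CCPG1 on the same strand, whose row held 0 counts in all 6 libraries. How reads in shared exons were counted is unknown, so the level of CCPG1 is uncertain. RETREG1, also known as FAM134B, was at 10.7 ± 1.05 and 11.2 ± 1.18 CPM, and TEX264 at 29.3 ± 2.09 and 28.3 ± 1.11 CPM. Neither was called, with 95% intervals of -0.17 to 0.28 and -0.20 to 0.10 on the log2 scale.

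At the last step EPG5 rose. It (ENSG00000152223, chr18:45847609-45967339) encodes a tether that guides autophagosomes to late endosomes and lysosomes, and was at 39.2, 44.7 and 40.5 CPM with PBS and at 53.2, 52.3 and 52.5 CPM with TPBC-PEG. The TPBC-PEG libraries lay close together and all above PBS, with a log2 fold change of 0.35 ± 0.060 (edgeR adjusted p = 8.82e-06). STX17, the SNARE of the autophagosome, and TECPR1, a tether that binds the ATG12 and ATG5 conjugate, were not called, at 0.053 and -0.11.

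The TPBC-PEG libraries did not carry the rises equally. In 8 of the 15 risen members TPBC-PEG replicate 2 was the highest and in 7 replicate 1, and replicate 3 was the lowest in 10. Over all 2574 genes called higher, replicate 2 was the highest in 49.88%, replicate 1 in 28.98% and replicate 3 in 21.1%. Replicate 3 was the lowest in 51.5% of them. Without TPBC-PEG replicate 3, 16 members were called higher and 1, ATG4D, lower. Across the 43 members, the log2 fold change had a Pearson r of -0.011 with GC content (Spearman -0.030), -0.13 with log2 exon length (0.042) and -0.37 with the log2 PBS level (-0.21). Over all genes, r was -0.11 with GC content (Spearman -0.15) and -0.014 with log2 exon length (0.0081). With the GC trend removed, 18 members were called higher and 1 lower. The fold changes and levels come from the same 6 libraries.

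Promoter sequence was available for 36 of the 43 members, with 44 RefSeq starts. The search covered the 250 bases before each start on both strands. The ATF4 and CHOP composite element (TGATGNAA) was in 0 of the 44 windows and in 3.14% of all 35116 windows of that length. The CLEAR element of TFEB (TCACGTGA) was in 0 (0.854% of all) and the unfolded protein response element (TGACGTGG) in 0 (0.612%). The E-box CACGTG, which is the core of the CLEAR element, was in 2 windows, of ATG14 and ATG3 (6.34% of all). The antioxidant element (TGACNNNGC) was in 5 (10.9% of all), of which MAP1LC3B and CALCOCO2 belong to risen members. A FOXO match (GTAAACA) lay 226 bases before the CALCOCO2 start, as 1 of 44 (2.98% of all).

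After the WIPI1 and GABARAPL1 stretches had been read, the CRE and the GC box were searched as well. The CRE in the GABARAPL1 stretch was the only one in the 44 windows, and 1.65% of all windows hold one. The GC box was in 29 of the 44 and in 42.6% of all. It was in 13 of 18 windows of risen members and in 16 of 26 windows of members not called, a difference that was not tested. The WIPI1 window held 9 GC boxes, most of them in a repeat near the start, and 0.285% of all windows hold as many. Matches of letters describe these windows only.

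Genes around the set were taken from lists of the same pathway. Among all genes tested, 16.2% were called higher and 16.9% lower. Of 10 tested regulators of the phagophore membrane and the lipid kinase, 7 rose and 1 fell. TP53INP1, a stress gene whose product binds ATG8 proteins, was at 3.48 ± 0.570 and 8.40 ± 1.00 CPM, and RUBCNL, a Beclin 1 complex partner, at 2.50 ± 0.141 and 4.18 ± 0.931. EI24 fell by 0.27 on the log2 scale. Neither ATG16L2 nor MAP1LC3B2 was called, and ATG9B and MAP1LC3C were too low to test. Of 11 fusion genes 2 rose and 1 fell, with PLEKHM1, an adaptor of RAB7, at 0.54, VPS11, a HOPS tether subunit, at 0.19 and the SNARE gene SNAP29 at -0.17.

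Of 15 further receptors, SQSTM1 among them, 7 rose and 2 fell, beside 16.2% higher and 16.9% lower over all genes. SQSTM1 and CALCOCO1, another receptor of the endoplasmic reticulum, rose by 1.03 and 0.56 on the log2 scale. The other rises, named after their values were seen, were BNIP3L (0.32), TOLLIP (0.29), BNIP3 (0.27), BCL2L13 (0.18) and SEC62 (0.10). PHB2, a mitophagy receptor, and NCOA4, the receptor for ferritin, fell by 0.16 and 0.14. FUNDC1, FKBP8, PINK1, RTN3, ATL3 and WDFY3 were not called. Among 12 genes of AMPK, mTORC1 and TBK1 control, 2 rose and 1 fell. These were the AMPK subunits PRKAB2 (0.43) and PRKAA2 (0.15), and MLST8 of mTORC1 (-0.18). Of 9 transcription factors known to act on autophagy genes 5 rose and 0 fell by edgeR. The count of falls was also 0 at an unadjusted p under 0.05 and with DESeq2 and limma-voom. DDIT3, the CHOP gene, and CEBPB led at 2.67 and 1.19, though exons of other genes cover 39.6% of the DDIT3 exon length. The largest overlap was with MARS on the opposite strand, and how far its reads enter the DDIT3 row was not tested. The DDIT3 row held 54 to 66 counts per PBS library and 277 to 551 per TPBC-PEG library. The other 3 that rose, named after their values were seen, were ATF4 at 0.51, FOXO3 at 0.47 and NFE2L2 at 0.27. TFEB, TFE3, MITF and FOXO1 were not called.

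**Figure D5:**
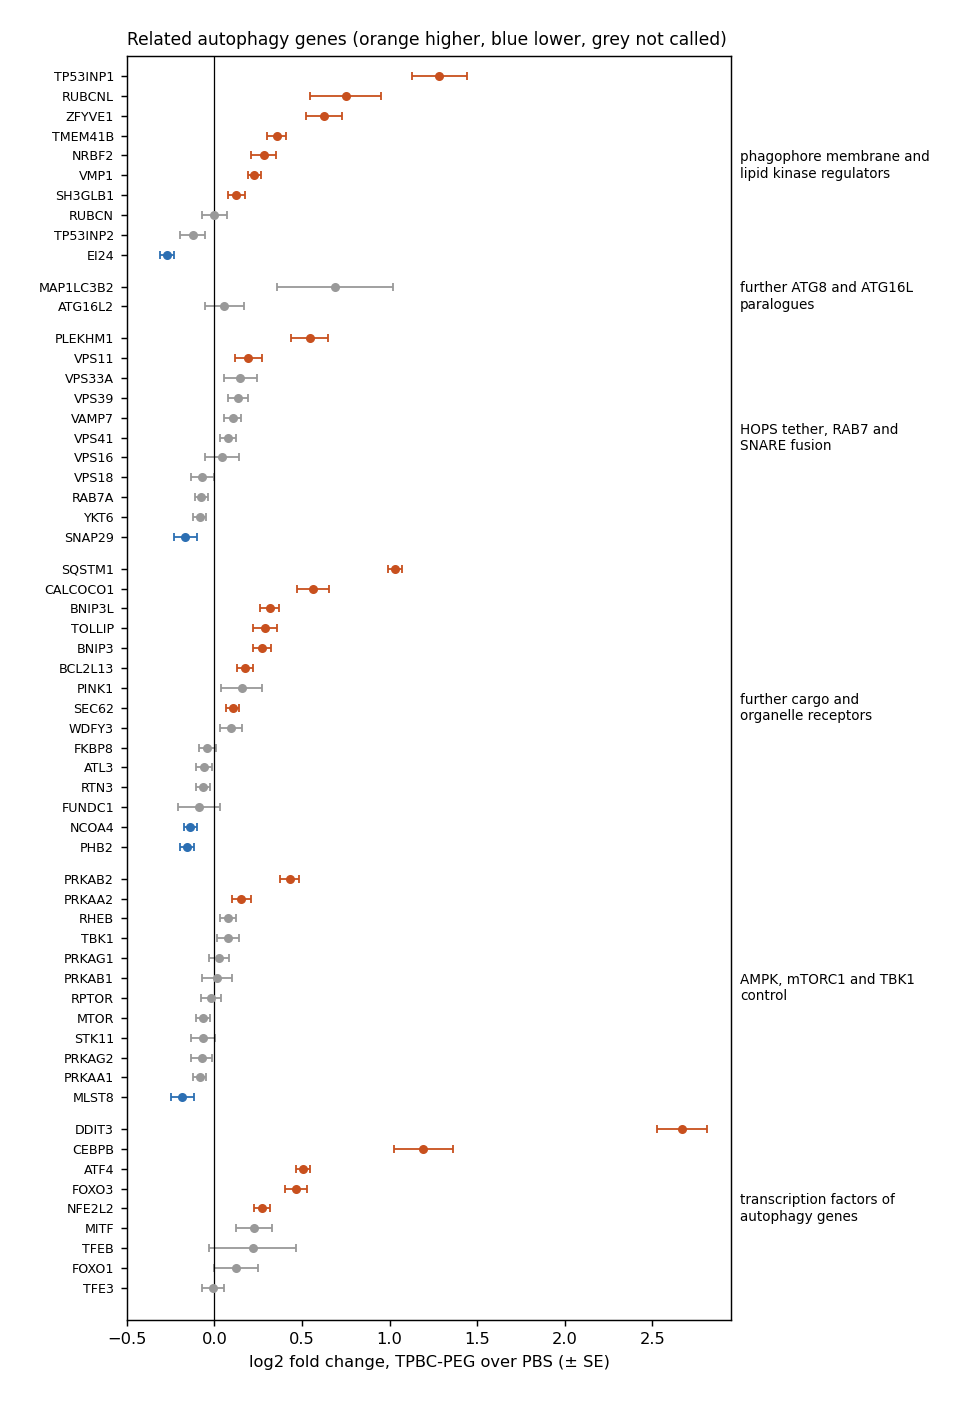
Log2 fold change ± SE (TPBC-PEG over PBS, 3 libraries each) of the tested genes in the 6 related lists; orange is called higher, blue lower, grey not called. DDIT3 at 2.67, TP53INP1 at 1.28, CEBPB at 1.19 and SQSTM1 at 1.03 lie farthest right.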

How the data were processed

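Total RNA of 6 143B libraries was sequenced, 3 per group, with groups and replicate numbers from the sample titles. The authors deposited 1 table of raw counts per Ensembl gene; HISAT2 and the build GRCh38 are named in the deposited series, per the submitters' processing notes. The version of HISAT2, the counter, the annotation, strandedness and the treatment of multi-mapped reads were not given in the sources used here, so counts of overlapping genes are less certain. Members and lists were chosen with earlier results of these data known.

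Counts were analysed with edgeR 4.0.16 (limma 3.58.1, R 4.3.3): filterByExpr (minimum count 10, minimum total 15), TMM scaling, robust quasi-likelihood fit, group as the only term, Benjamini-Hochberg adjustment over all 15846 tested genes, calls at 0.05. CPM are TMM-scaled; SE come from the F statistic. Symbols came from the gene name table, and positions, exon lengths, overlaps and GC from GENCODE 29. Exon length counts every annotated exon of a gene, not only those of the transcripts expressed. Overlap is the percent of that length shared with any other gene on either strand. In a simulated TPBC-PEG against PBS comparison (15632 genes) the script recovered 58% of 1.25-fold and 80% of 1.5-fold changes, 96% at 2-fold and 100% at 4-fold, with 4 of 171 calls false. Only 50 genes were changed at each fold, none of low level, whereas 33.2% of genes were called in the real data. The rates therefore need not hold for this comparison. All 6 libraries give 15726323 to 20486584 counts. Counts carry no molecular identifiers, so reads need not be separate molecules.

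Members called at an absolute log2 fold change of 0.3 or more, and the smallest p in a step with none, are given by library; related lists name up to 2 called genes per direction. Alternatives were other scalings, filters and tools (DESeq2 1.42.0, limma-voom), a 1.5-fold null, trend offsets (lowess, span 0.3), protein-coding genes alone, a replicate block and leaving out each library. Protein sequences were not used here.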

Additional observations from a re-analysis of the deposited data

How the results depend on the processing

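Of the 15 members called higher, 13 were called under every other scaling, filter, tool, offset and left-out library tried; the exceptions are WIPI2 and CALCOCO2, given above. Against a 1.5-fold change, 2 members, 131 genes in all as higher and 14 as lower were called. With a library left out, 14 to 16 members were higher and 0 to 1 lower, and all genes called ran from 1987 to 2347 higher and 2141 to 2515 lower. A member was called lower, 1 each, with the expression-level trend removed (ATG4D) and with the GC trend removed (ATG5). The members' median log2 fold change was 0.17 with library size alone, 0.087 with a filter of 1 CPM in 3 libraries, which drops MAP1LC3A and GABARAP, and 0.10 with the expression-level trend removed, and ran from 0.098 to 0.12 with a library left out. The cause of these shifts was not tested beyond the smaller set under that filter.

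Signs turned only for members that were not called. With the GC trend removed these were ATG12 (-0.023), ATG2B (-0.0031), ATG3 (-0.0040), ATG4C (-0.055) and PIK3R4 (-0.020). ATG2B was at -0.014 with the exon length trend removed, UVRAG at 0.037 with library size alone and 0.0019 on protein-coding genes, and ATG16L1 at 0.018 with library size alone. With a library left out the ranges were -0.064 to 0.0096 (ATG16L1), -0.013 to 0.051 (ATG2B), -0.014 to 0.052 (ATG4C), -0.12 to 0.61 (GABARAP), -0.0087 to 0.095 (GABARAPL2), -0.012 to 0.043 (PIK3R4), -0.030 to 0.13 (RETREG1), -0.029 to 0.14 (STX17), -0.043 to 0.19 (ULK2) and -0.046 to 0.042 (UVRAG); the cause was not tested.

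With the replicate number as a block 15 members were called higher and 0 lower, with a median of 0.12. Same-numbered libraries had correlations of deviations from -0.015 to 0.065, and 2 of 6 libraries correlated best with their own number, so the numbers were not taken to pair them. Depth limits MAP1LC3A, GABARAP and WDR45, with at most 114 counts a library.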
